A study of Mus musculus with 6 samples.

Results

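The 7 genes described here encode proteins of myoblast fusion and muscle cell adhesion. They are Tmem8c, the older symbol of myomaker (Mymk), the cadherins Cdh15 and Cdh2, the ferlins Myof and Dysf, and the immunoglobulin family adhesion molecules Jam3 and Ncam1. They were taken by symbol from an expression table of 20950 entries, and all 7 were found. All 7 were also among the 10731 entries with a mean of at least 1 FPKM (fragments per unit of transcript length and of library depth) that entered the tests. FPKM is given per length, so levels can be set side by side between genes.

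RNA was sequenced from C2C12, an established mouse myoblast line that forms myotubes when serum is reduced. The 6 libraries cover 5 conditions. One was growth medium with 10% FBS (fetal bovine serum), and the others were differentiation media with 2% HS (horse serum) or 0.2% FBS, each without or with added exosomes. Exosomes are small extracellular vesicles. Here they were isolated from FBS and given in an amount meant to match 10% FBS, so the exosome cultures of both media received bovine vesicles. The 0.2% FBS + exosome condition had 2 libraries and each of the other 4 conditions had 1. All libraries come from 1 cell line with no genetic change, and the labels do not say whether the 2 exosome libraries are separate cultures.

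Myoblasts that leave the cell cycle recognise each other through cadherins and immunoglobulin family proteins, align, and then merge their membranes into a multinucleated myotube. Myomaker is a muscle-specific membrane protein required for this merging, and myomixer (listed here as Gm7325, also called Mymx) works with it at a later step. M-cadherin (Cdh15) and N-cadherin (Cdh2) hold neighbouring myoblasts together through catenins. Dysferlin and myoferlin are large C2-domain proteins that act at the membrane, dysferlin best known for repair of the muscle cell surface and myoferlin for myoblast fusion. JAM-C (Jam3) binds JAM-B (Jam2) on the opposing cell, and NCAM (Ncam1) is an adhesion molecule of muscle and nerve cells.

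The study measured the Tmem8c message by RT-qPCR with a pair of primers, shown here because they tie its symbol Mymk to the entry Tmem8c. In the mm10 build both lie in coding sequence of the minus-strand gene, the forward primer in exon 3 at chr2:27066321-27066341 and the reverse primer in exon 4 at chr2:27062789-27062808. They span 81 bases of the transcript, and neither matched a transcript of another annotated gene.
Mymk forward: gtatactccggtcccataggc
Mymk reverse: caggcccttcttctctttca

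Promoter windows of 300 bases (250 before to 50 after the start, RefSeq, GRCm38.p6) are given for Dysf (2 windows), Cdh15 and Myof. None was found for Tmem8c, Jam3 and Ncam1, and no window of Cdh2 is reported here. The windows given were searched on both strands for the E-box CANNTG, the hexamer bound by myogenic regulators such as myogenin. CAGCTG and CACCTG are special forms of it. Of the 2 Dysf windows, the one that holds the annotated gene start (chr6:84008348-84008647) had no E-box. The other, further into the gene (chr6:84019136-84019435), held a single E-box. The Cdh15 window held 4, and the Myof window held none. CAGCTG and CACCTG were in none of these windows. Of all 32851 promoter windows of that length, 72.3% held CANNTG, 16.3% CAGCTG and 20.2% CACCTG, so a match by itself sets no gene apart. The plus-strand stretches below, with the E-box in capitals, lie at chr6:84019396-84019425 (Dysf, first E-box base at +23 from the start), chr8:122848126-122848155 (Cdh15, -236), chr8:122848227-122848256 (Cdh15, -135), chr8:122848330-122848359 (Cdh15, -32) and chr8:122848360-122848389 (Cdh15, -2). They are shown because Dysf passed the test of the exosome effect below and Cdh15 did not. Positions are counted from the RefSeq start used for each window. In the GENCODE annotation Cdh15 starts earlier, at chr8:122847966, so its 4 stretches lie inside that gene and not before it. Dysf starts there at chr6:84008590, so its stretch lies inside the gene as well.
Dysf +23: gcgcagcagaatCAACTGctctcttggcat
Cdh15 -236: aggcactgatcaCATATGctgtcactcaga
Cdh15 -135: caggcccacctaCATGTGctgtcactcatc
Cdh15 -32: cgccccaccacaCACGTGcagtcccttggc
Cdh15 -2: ctgctccccaagCACTTGcgctgtcactca

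The libraries were first checked as muscle cells. The summed level of 5 muscle markers (Myod1, Myf5, Des, Myog, Myh3) was 1976 FPKM in 10% FBS, 3304 in 2% HS, 3186 in 2% HS + exosome, 3426 in 0.2% FBS, and 1720 and 1463 in 0.2% FBS + exosome. This sum thus split the libraries as Tmem8c, Ncam1, Cdh2 and Dysf did, but Myf5 and Myod1 by themselves did not. Myf5 ran the other way, at 12.2 FPKM in 10% FBS, 6.50 in 2% HS, 4.22 in 2% HS + exosome and 5.39 in 0.2% FBS. In 0.2% FBS + exosome Myf5 was at 10.1 and 12.9 FPKM. Myod1 was at 100.8 FPKM in exosome replicate 2 of 0.2% FBS, above 97.2 in 2% HS and 91.0 in 2% HS + exosome. All 4 endothelial and all 4 neuronal and glial markers stayed below 1 FPKM in every library, with sums of 0.110 to 0.284 and 0.123 to 0.388 FPKM. Of the 4 blood markers, 3 were listed in the table and summed to 2.07 to 3.41 FPKM. Myog, the myogenic regulator of early differentiation, was at 512 FPKM in the 10% FBS library and at 350 to 719.8 FPKM in the differentiating libraries. In bulk RNA, fewer fusing cells and less RNA of a gene in each cell cannot be told apart.

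With exosomes in 0.2% FBS, the fusion gene Tmem8c and the repair gene Dysf fell, although 3 of 7 alternative settings ended both calls. Of these 3, the fit common to both media tests another effect. Without a filter on low genes and with values below 1 FPKM raised to 1, the differences stayed about as large. Ncam1 and Cdh2 were also lower in both exosome libraries but missed the test, and Cdh15, Jam3 and Myof stayed close to the level without exosomes. In 2% HS none of the 7 genes passed, where only 0.0839% of all genes did. In 0.2% FBS, Tmem8c with exosomes averaged 0.393 of its level without them on the FPKM scale, Ncam1 0.531, Dysf 0.534 and Cdh2 0.575. The corresponding ratios were 0.973 for Myof, 1.19 for Jam3 and 1.22 for Cdh15. All of these rest on 2 libraries with exosomes against 1 without. Of the 5 muscle markers only Myf5 passed. Myh3, an early myosin heavy chain, had 1604 FPKM in 0.2% FBS against 713 and 404 with exosomes (log2 difference -1.58, limma adjusted p = 0.0586), and Des, desmin, was at 1043 and at 559 and 543 FPKM (-0.92, limma adjusted p = 0.120). Myf5, a regulator of undifferentiated myoblasts, rose from 5.39 to 10.1 and 12.9 FPKM (0.96, limma adjusted p = 0.0196), and Myod1 was at 110.5 and at 87.6 and 100.8 FPKM. The part of these markers in the values of the 7 genes was not tested. The tests of limma borrow the spread of the 2 exosome libraries for the conditions with 1 library, and so assume that those vary alike.

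**Figure D1:**
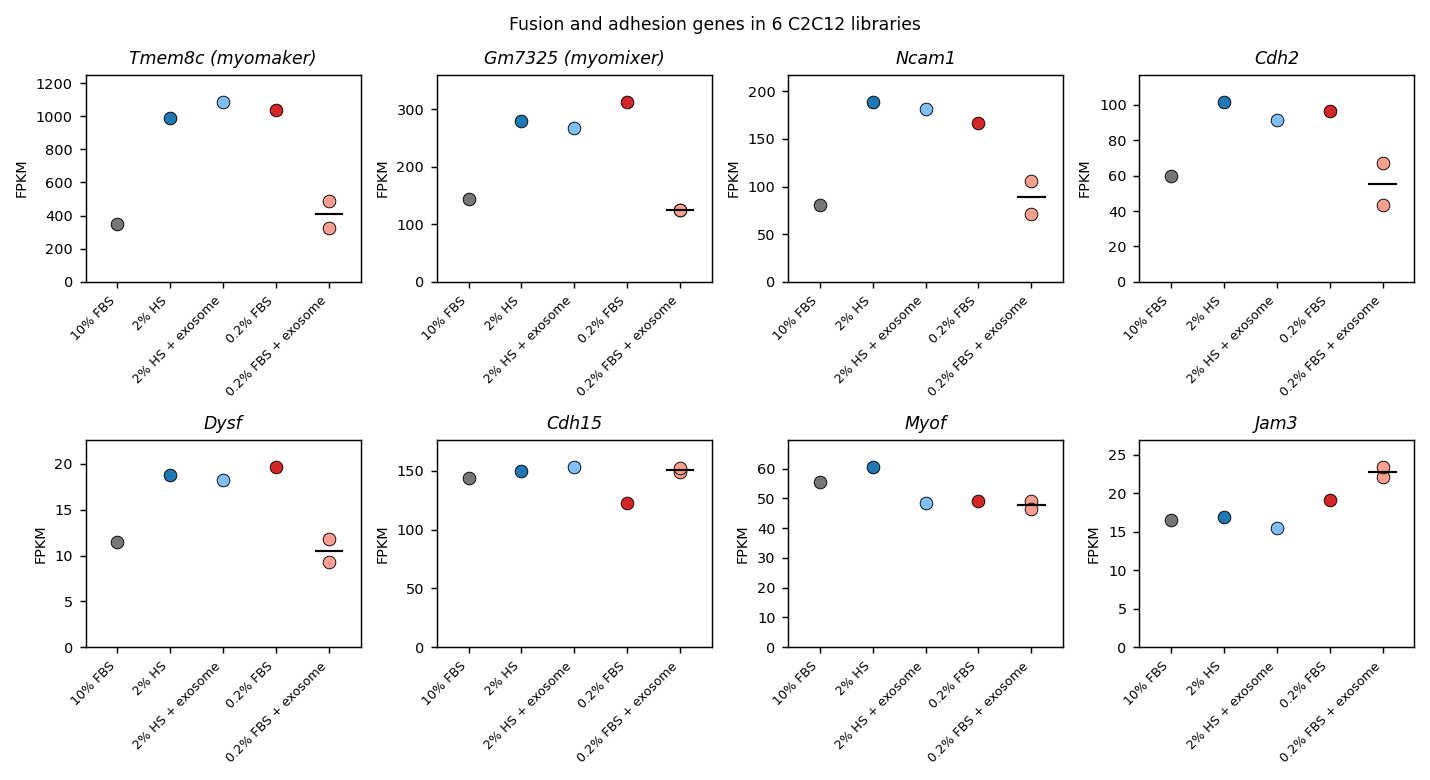
Level in FPKM (vertical axis, from 0) of the 7 genes and of Gm7325 (myomixer) in each of the 6 libraries; each point is 1 library, and the line marks the mean of the 2 libraries of 0.2% FBS + exosome. Tmem8c, Gm7325, Ncam1, Cdh2 and Dysf are high in the 3 libraries of 2% HS, 2% HS + exosome and 0.2% FBS and lower in the other 3, whereas Cdh15, Myof and Jam3 vary less.

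Tmem8c was the most abundant of the 7 genes in every library. In mm10 it lies at chr2:27061636-27072179 on the minus strand, with 5 exons and a coding sequence of 221 codons. Its level was 349 FPKM in 10% FBS, 987 in 2% HS, 1088 in 2% HS + exosome, 1036 in 0.2% FBS, and 486 and 327 in the 2 libraries of 0.2% FBS + exosome. The 3 high libraries lay close together, and both exosome libraries of 0.2% FBS lay near the growth control, 1 above and 1 below it. The difference of log2(FPKM + 1) from the 0.2% FBS library was -1.09 in replicate 1 and -1.66 in replicate 2, with a mean of -1.37 (SD 0.40, n = 2, limma 95% interval -2.23 to -0.52, adjusted p = 0.0484). In 2% HS the same difference was 0.14 (95% interval -0.85 to 1.13), 1 library against 1. Where both media held exosomes, Tmem8c was lower in 0.2% FBS than in 2% HS, with a log2 difference of -1.45 (limma, adjusted p = 0.0339). The difference between the exosome effects of the 2 media, -1.52, did not pass (limma, adjusted p = 0.205, 95% interval -2.83 to -0.20).

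Myomixer, the partner of myomaker, split the libraries in the same way. Gm7325 was at 145 FPKM in 10% FBS, 279 in 2% HS, 268 in 2% HS + exosome, 313 in 0.2% FBS, and 124 and 125 in 0.2% FBS + exosome. Its 2 exosome libraries were nearly equal and below the growth control. It fell by 1.32 on the log2(FPKM + 1) scale with exosomes in 0.2% FBS (SE 0.23, limma adjusted p = 0.0145), and its difference in 2% HS was -0.06. The ratio of Tmem8c to Gm7325, which does not depend on the scaling between libraries, was 3.31 in 0.2% FBS and 3.91 and 2.62 with exosomes. The ratios with exosomes thus lay on both sides of the ratio without them. The ratio of Tmem8c to Myog was 1.56 in 0.2% FBS, 1.39 and 0.815 with exosomes, and 0.682 in 10% FBS, against 1.75 in 2% HS and 1.51 in 2% HS + exosome. Myog itself was at 663 FPKM in 0.2% FBS and 350 and 401 with exosomes, a log2 difference of -0.82 that missed the test (limma, adjusted p = 0.120).

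Of the 2 ferlins, only Dysf passed. Dysf, at chr6:84008590-84211060 on the plus strand with 55 exons, had the lowest level of the 7 genes in 3 of the 6 libraries. It was at 11.5 FPKM in 10% FBS, 18.8 in 2% HS, 18.3 in 2% HS + exosome, 19.7 in 0.2% FBS, and 11.8 and 9.25 in 0.2% FBS + exosome. The other 3 differentiating libraries were all above the growth control and both exosome libraries of 0.2% FBS. The differences of log2(FPKM + 1) in 0.2% FBS were -0.69 and -1.01, with a mean of -0.85 (SD 0.23, n = 2, limma SE 0.18, adjusted p = 0.0246). In 2% HS the difference was -0.04 (95% interval -0.52 to 0.44), and the difference between the media was -0.81 (limma, adjusted p = 0.171). With exosomes in both media, Dysf was lower in 0.2% FBS than in 2% HS with a log2 difference of -0.75 (limma, adjusted p = 0.0280).

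Myof, at chr19:37899036-38043577 on the minus strand with 53 exons, showed no such pattern. It was at 55.6 FPKM in 10% FBS, 60.6 in 2% HS, 48.6 in 2% HS + exosome, 49.1 in 0.2% FBS, and 49.2 and 46.4 in 0.2% FBS + exosome. All 6 values lay within a range of 46.4 to 60.6 FPKM, and the exosome libraries of 0.2% FBS lay on both sides of their control. The mean log2 difference in 0.2% FBS was -0.04 (95% interval -0.43 to 0.35, limma adjusted p = 0.904). In 2% HS it was -0.31 (95% interval -0.77 to 0.14). The ratio of Dysf to Myof within a library was 0.207 in 10% FBS, 0.310 in 2% HS, 0.376 in 2% HS + exosome, 0.401 in 0.2% FBS, and 0.240 and 0.199 in 0.2% FBS + exosome. Relative to myoferlin, dysferlin RNA was therefore higher in all 3 of the other differentiating libraries than in the growth control and in both exosome libraries of 0.2% FBS.

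**Figure D2:**
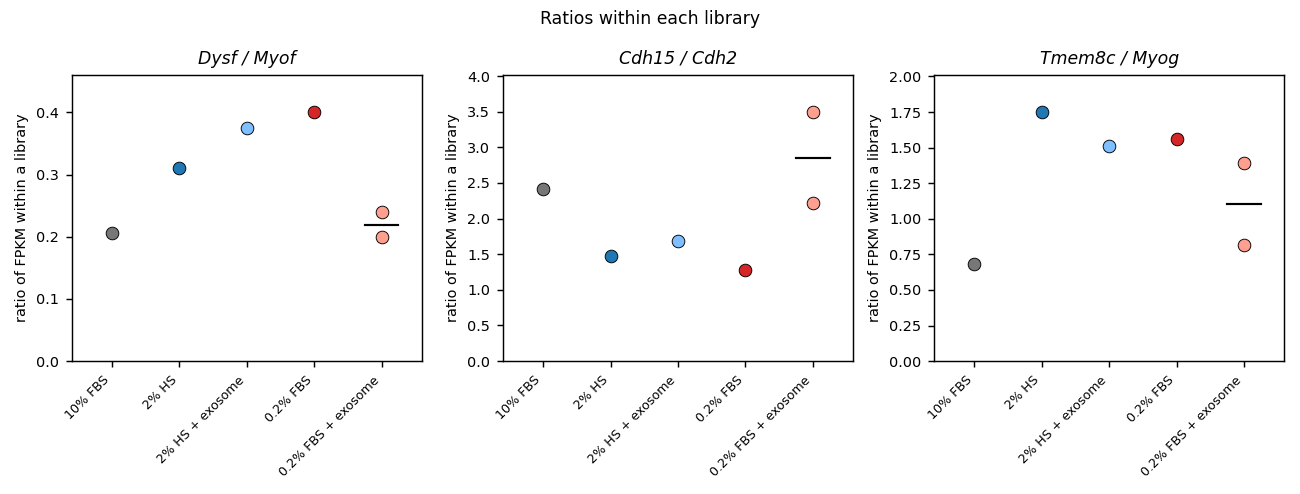
Ratio of 2 FPKM values within each library (vertical axes, from 0): Dysf to Myof, Cdh15 to Cdh2 and Tmem8c to Myog; each point is 1 library and the line marks the mean of the 2 libraries of 0.2% FBS + exosome. The ratio of Cdh15 to Cdh2 is 1.28 in 0.2% FBS and 2.21 and 3.50 with exosomes, the reverse of the order of Dysf to Myof.

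Neither of the 2 cadherins passed. Cdh2 was at 59.6 FPKM in 10% FBS, 102 in 2% HS, 91.2 in 2% HS + exosome, 96.4 in 0.2% FBS, and 67.3 and 43.6 in 0.2% FBS + exosome. Both exosome libraries lay below every other differentiating library, and they lay on either side of the growth control. Its log2 differences in 0.2% FBS were -0.51 and -1.13, a mean of -0.82 (SD 0.44, n = 2, limma adjusted p = 0.0717). In 2% HS the difference was -0.16 (95% interval -0.84 to 0.53), and the difference between the media was -0.66 (limma, adjusted p = 0.393). Cdh2 is annotated at chr18:16588877-16809246 on the minus strand, with 16 exons.

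Cdh15 did not share this split. It was at 144 FPKM in 10% FBS, 150 in 2% HS, 153 in 2% HS + exosome, 123 in 0.2% FBS, and 149 and 152 in 0.2% FBS + exosome. The 0.2% FBS library was the lowest, and the other 5 values lay between 144 and 153 FPKM. The log2 difference in 0.2% FBS was 0.29 (SD 0.02, n = 2, 95% interval -0.19 to 0.77, limma adjusted p = 0.387), and in 2% HS it was 0.03 (95% interval -0.52 to 0.59). The ratio of Cdh15 to Cdh2 was 2.42 in 10% FBS, 1.47 in 2% HS, 1.68 in 2% HS + exosome, 1.28 in 0.2% FBS, and 2.21 and 3.50 in 0.2% FBS + exosome. M-cadherin RNA thus exceeded N-cadherin RNA in all 6 libraries, least in 0.2% FBS and most in the exosome replicate 2. The gene lies on chromosome 8 at 122847966 to 122867397 on the plus strand, with 14 exons, and overlaps the annotated gene Gm20388 on the same strand, whose reads could be counted with it.

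Neither of the immunoglobulin family members, Ncam1 and Jam3, passed for exosomes in 0.2% FBS. Ncam1, at chr9:49502136-49798925 on the minus strand, was at 80.5 FPKM in 10% FBS, 189 in 2% HS, 182 in 2% HS + exosome, 167 in 0.2% FBS, and 106 and 71.4 in 0.2% FBS + exosome. The libraries split as for Tmem8c, with both exosome libraries of 0.2% FBS far below the other differentiating libraries. The log2 differences in 0.2% FBS were -0.65 and -1.22, a mean of -0.93 (SD 0.40, n = 2, limma 95% interval -1.54 to -0.33, adjusted p = 0.0540). In 2% HS the difference was -0.06 (95% interval -0.76 to 0.64), and the difference between the media was -0.88 (limma, adjusted p = 0.276). With exosomes in both media, Ncam1 was lower in 0.2% FBS than in 2% HS with a log2 difference of -1.05 (limma, adjusted p = 0.0307).

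Jam3, at chr9:27097384-27155421 on the minus strand, was the member with the fewest estimated reads. It was at 16.5 FPKM in 10% FBS, 16.9 in 2% HS, 15.5 in 2% HS + exosome, 19.1 in 0.2% FBS, and 22.1 and 23.5 in 0.2% FBS + exosome. Both exosome libraries of 0.2% FBS were above all others, but by little. The log2 difference was 0.24 in 0.2% FBS (SD 0.06, n = 2, 95% interval -0.12 to 0.60, limma adjusted p = 0.340) and -0.12 in 2% HS (95% interval -0.53 to 0.30). With exosomes in both media, Jam3 was at a log2 difference of 0.53 in 0.2% FBS against 2% HS (95% interval 0.17 to 0.89, limma adjusted p = 0.0521), and 2 of 6 alternatives called it (limma, adjusted p = 0.0490 with a pseudocount of 0.1 and 0.0444 with a minimum mean of 5 FPKM). Its partner Jam2, named after its values were seen, went the other way: it was at 26.2 FPKM in 0.2% FBS and 16.5 and 17.2 with exosomes, and fell by 0.61 on the log2 scale (limma, adjusted p = 0.0410). The strand setting used to compute FPKM is not given in the sources used here, and annotated antisense genes overlap Cdh2, Dysf, Jam3 and Ncam1, so reads of those genes could enter if strand was not used.

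**Figure D3:**
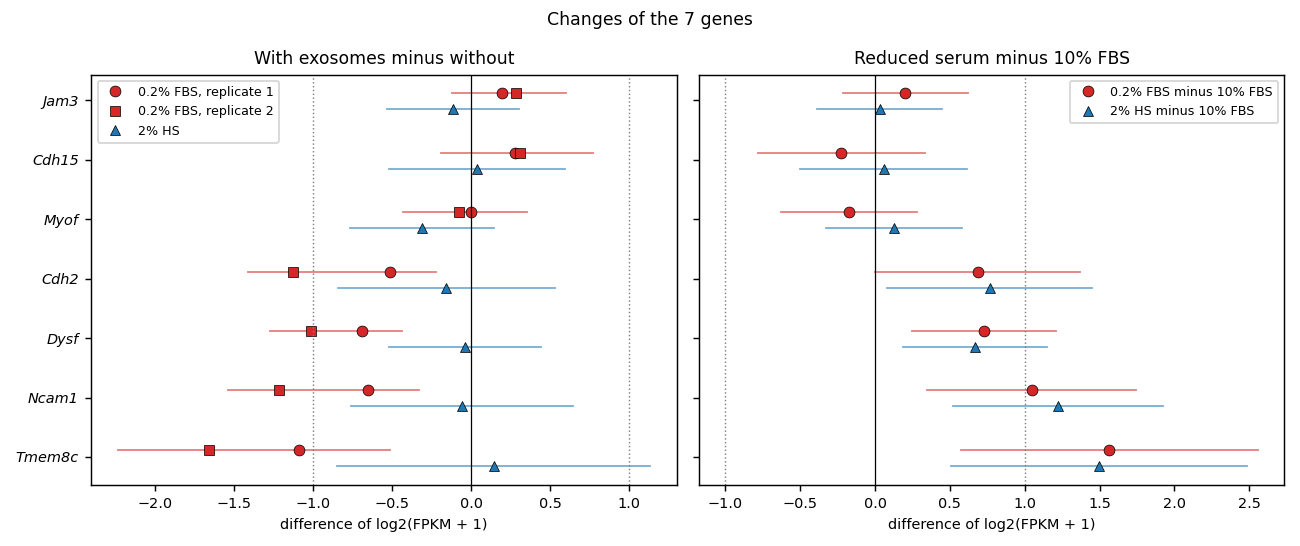
Differences of log2(FPKM + 1) (horizontal axes) for the 7 genes; left, with exosomes minus without, red circles and squares for the 2 libraries of 0.2% FBS and blue triangles for 2% HS; right, 0.2% FBS (red) and 2% HS (blue) minus 10% FBS. Thin lines are 95% intervals of limma and dotted lines mark the threshold of 1; for Tmem8c, Ncam1, Dysf and Cdh2 the red symbols lie left of 0 in the left panel and both symbols right of 0 in the right panel.

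These counts were read against all 10731 genes tested. For exosomes in 0.2% FBS, limma called 4.32% of genes lower and 8.20% higher, and of the 7 genes 2 were lower and 0 higher. At an unadjusted p below 0.05, 4 of the 7 passed, all of them lower, beside 31.5% of all genes in either direction and 8.98% lower. A log2 difference below -1 in each exosome library was found in 1.61% of genes and in 1 of the 7, Tmem8c. Lower values of any size in each exosome library were found in 27.5% of genes and in 4 of the 7. The median difference was 0.14 over all genes and -0.82 over the 7, so the 4 lower genes went against the shift of the table as a whole. When each library was scaled to the same 75th percentile, the median over all genes was 0.04 and Ncam1 (limma, adjusted p = 0.0252) and Cdh2 (limma, adjusted p = 0.0362) passed as well. The calls of Tmem8c and Dysf were lost in the fit common to both media (limma, adjusted p = 0.705 for both), without a filter on low genes (limma, adjusted p = 0.290 and 0.267) and when values below 1 FPKM were raised to 1 (limma, adjusted p = 0.155 and 0.141).

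In 2% HS limma called 0.0839% of genes in either direction and none of the 7, and 507 genes (4.72%) had an unadjusted p below 0.05, again none of the 7. A log2 difference beyond 1 in size was found in 0.652% of genes and in none of the 7. The difference between the media was called lower in 0.867% of genes and in none of the 7, with limma adjusted p-values of 0.171 to 0.710; at an unadjusted p below 0.05, 2 of the 7 passed, Tmem8c and Dysf, beside 19.5% of all genes in either direction and 5.58% lower. A fit of 1 exosome effect common to both media, over the 5 differentiating libraries, called 0 genes (0%), with 709 (6.61%) at an unadjusted p below 0.05 and adjusted p-values of 0.705 to 0.858 for the 7. Where both media held exosomes, limma called 5.67% of genes lower in 0.2% FBS than in 2% HS, among them 3 of the 7, Tmem8c, Dysf and Ncam1. These 3 calls were lost without a filter on low genes and when values below 1 FPKM were raised to 1, with limma adjusted p-values of 0.123 to 0.284.

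Serum reduction itself was read against the single 10% FBS library. The same control enters the values of both media, so they are given side by side. On the FPKM scale, Tmem8c was 2.97 times its 10% FBS level in 0.2% FBS and 2.83 times in 2% HS. Ncam1 was 2.08 and 2.35 times, Dysf 1.71 and 1.64 times, and Cdh2 1.62 and 1.71 times. Cdh15 was at 0.855 and 1.04, Myof at 0.884 and 1.09, and Jam3 at 1.16 and 1.02 of the 10% FBS level. The 4 genes that were lower with exosomes in 0.2% FBS had the highest ratios of the 7 in both media, but the 0.2% FBS library enters both the exosome effect and this comparison. A log2 difference above 1 was found for 2 of the 7 genes, Tmem8c and Ncam1, in each medium, and for 1.79% of all genes in 0.2% FBS and 1.79% in 2% HS. limma called 0.00932% of genes higher in 0.2% FBS and 0.401% in 2% HS, and none of the 7, whose lowest adjusted p-values were 0.128 and 0.125. Without adjustment, 4 of the 7 had a p below 0.05 in each medium, all of them higher, beside 17.7% of all genes in 0.2% FBS (6.33% higher) and 16.8% in 2% HS (6.86% higher).

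Set against growing cells, 0.2% FBS + exosome came close for most of the 7 genes. Its mean level was 116% of the 10% FBS level for Tmem8c, 110% for Ncam1, 105% for Cdh15, 93.1% for Cdh2, 91.6% for Dysf and 86.0% for Myof, and Jam3 stood highest at 138%. None of the 7 was called (limma, adjusted p = 0.344 to 0.940), where 0.0652% of all genes were, and 1 of the 7, Jam3, had an unadjusted p below 0.05, beside 11.5% of all genes. The 95% interval for Tmem8c, -0.67 to 1.05 on the log2 scale, still leaves room for a change of 1 in size, so equality was not shown. When the 5 conditions were ordered by the level of each gene, no 2 neighbours in the order passed for any of the 7, but neighbours are the smallest steps by construction. Across the wider gap between 2% HS and 0.2% FBS + exosome, which differ in both serum and exosomes, limma called 4.49% of genes lower in the latter and 2 of the 7, Dysf (log2 difference -0.79, adjusted p = 0.0315) and Ncam1 (-1.11, adjusted p = 0.0345). In the same comparison Tmem8c was at -1.30 (limma, adjusted p = 0.0562) and Cdh2 at -0.90 (limma, adjusted p = 0.0565).

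Over the 6 libraries, Tmem8c, Ncam1, Dysf and Cdh2 varied together. Pearson's r of log2(FPKM + 1) lay between 0.948 (Tmem8c and Cdh2) and 0.990 (Tmem8c and Ncam1) for the 6 pairs of these 4 genes. Jam3 ran against them, with r of -0.539 to -0.632. Cdh15 had r of -0.238 to -0.417 with them, and Myof 0.189 to 0.421. These values describe 6 libraries, and genes of 1 library share its depth and processing. The similar genes below were picked as the highest r among 10731 genes over 6 libraries. A high r is favoured by that choice itself and is no test of a link. Among all tested genes, the 3 most like Tmem8c were Camk2a (r = 0.997), an entry whose symbol reads as the date 11-Mar (r = 0.997) and whose gene cannot be named from it, and Fam171a2 (r = 0.993). Cdh2 was closest to Unc45b (r = 0.996), a myosin chaperone, Chrnd, a subunit of the muscle acetylcholine receptor, and Vgll3. Dysf was closest to Hspb3 (r = 0.999), Hhatl and Krt80, and Ncam1 to Pde4dip (r = 0.997), Ebp and Asb5. Hspb3, a small heat shock protein, was low, at 0.866 to 4.99 FPKM. For the less variable genes, those named are Tmem167b (r = 0.972) and Pigv for Cdh15, Rbm41 (r = 0.972), Dmxl1 and Ncapg2 for Myof, and Lrrc41 (r = 0.995), Sac3d1 and D17H6S53E for Jam3.

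Other genes of fusion and adhesion moved in both directions with exosomes in 0.2% FBS. Of 26 genes of the fusion machinery, 18 were tested, 3 fell and 3 rose, with a median of 0.26. Of 15 genes of the ferlin family and membrane repair, 11 were tested, 2 fell and 0 rose, with a median of -0.05. The 2 that fell, Trim72 and Cav3, are not ferlins. None of 9 tested cadherin and catenin genes passed, with a median of 0.16. Of 12 tested genes in the list of immunoglobulin family adhesion and integrins 1 fell and 2 rose, with a median of 0.28. The 1 that fell was Itgb1bp2, whose protein binds an integrin. In 2% HS no gene of the 4 lists passed. Over all genes tested, 4.32% were called lower and 8.20% higher in 0.2% FBS and 0.0839% in either direction in 2% HS, so a count of 0 in 2% HS is near the background.

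Trim72, which encodes the membrane repair protein MG53, was at 120 FPKM in 0.2% FBS and 47.4 and 34.0 with exosomes, a log2 difference of -1.56 (limma, adjusted p = 0.00895). Cav3, muscle caveolin, was at 69.7 FPKM and at 25.8 and 15.05 with exosomes (-1.77, limma adjusted p = 0.0105). Itgb1bp2, melusin, a muscle protein that binds integrin beta 1, was at 145 FPKM and at 49.6 and 30.8 (-1.86, limma adjusted p = 0.00894). These muscle genes were thus lower in both exosome libraries, as Dysf was. Vcam1, the receptor of integrin alpha 4 beta 1, went the other way, from 22.6 FPKM to 51.6 and 65.7 (1.33, limma adjusted p = 0.00863). In 2% HS the log2 differences of these 4 genes were -0.01, 0.35, 0.01 and 0.08. F11r, which encodes JAM-A, was past a log2 difference of 1 in 2% HS against 10% FBS, 5.66 against 1.51 FPKM, and was at 0.688 FPKM in 0.2% FBS. The other called genes of the fusion machinery, named after their values were seen, were Trio, a Rac activator, which fell by 0.77 on the log2 scale, and Kirrel (0.94), Cd9 (0.80) and Wipf1 (0.79), which rose; Mcam rose by 0.69 among the immunoglobulin family genes.

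**Figure D4:**
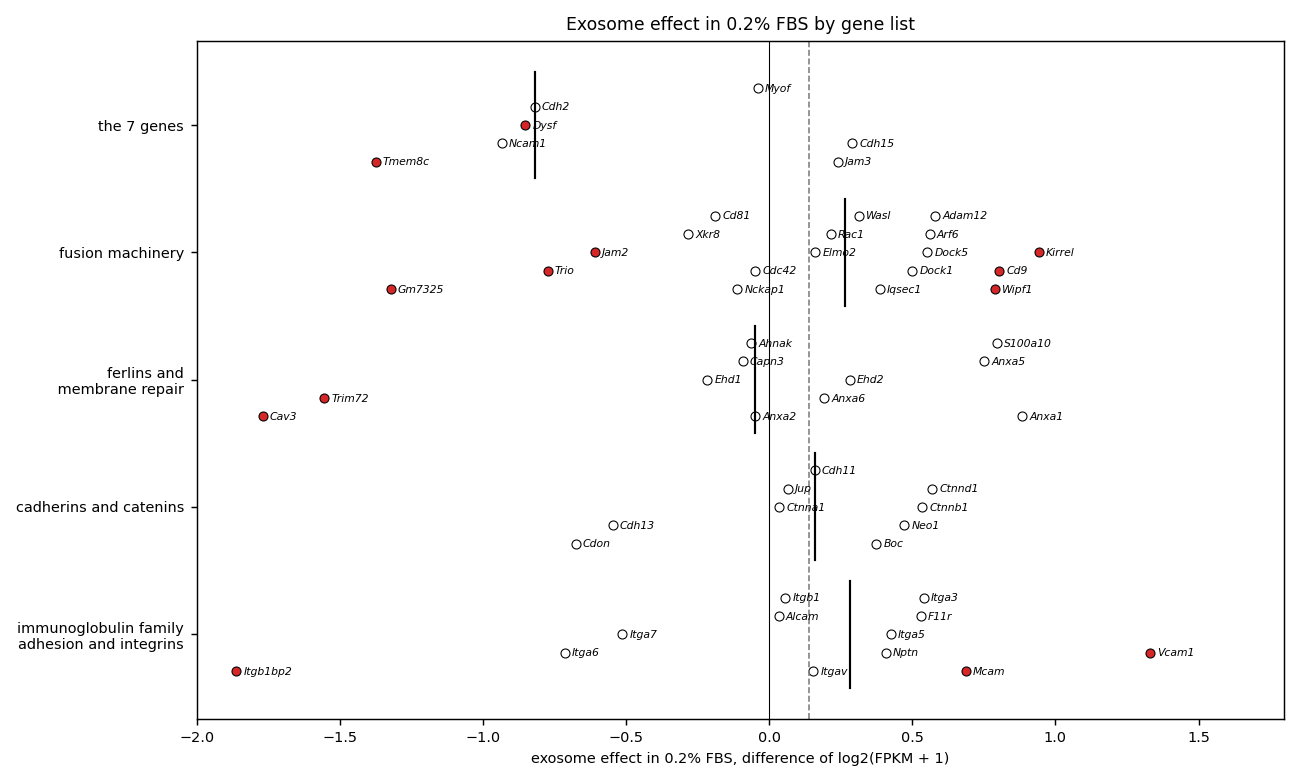
Exosome effect in 0.2% FBS as a difference of log2(FPKM + 1) (horizontal axis) for the 7 genes and the tested genes of 4 lists; each point is 1 gene, filled where limma called it, black bars are list medians and the dashed line is the median of 0.14 over all genes. The called genes of the 4 lists range from -1.86 (Itgb1bp2) to 1.33 (Vcam1), and the medians of the lists lie between -0.05 and 0.28.

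Rpl13a, to which the study scaled its RT-qPCR, varied between the libraries. It was at 787 FPKM in 10% FBS, 529 in 2% HS, 590 in 2% HS + exosome, 618 in 0.2% FBS, and 622 and 875 in 0.2% FBS + exosome. The second exosome library, which was also the lower for Tmem8c, Ncam1, Cdh2 and Dysf, had the highest value, and the part of this in the results was not tested. Relative to Rpl13a in the same library, Tmem8c with exosomes in 0.2% FBS was 0.466 and 0.223 of its control, Ncam1 0.631 and 0.301, Dysf 0.595 and 0.332, and Cdh2 0.694 and 0.319. In 2% HS the corresponding values were 0.989 for Tmem8c, 0.871 for Dysf, 0.861 for Ncam1 and 0.803 for Cdh2.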

How the data were processed

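Total RNA of C2C12 cells was made into 6 stranded mRNA libraries and sequenced as single reads of 75 bases. According to the submitters' notes, reads were trimmed with cutadapt 1.9.1 and mapped to mm10 with TopHat2 2.1.0. The authors then computed FPKM with Cufflinks and deposited 1 table with a column per library, in which depth and transcript length are already divided out. The labels name a miRNeasy kit for the RNA and the methods an RNeasy kit.

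No counts were used. Depths, estimated from the steps of low FPKM values (within 0.1 of a read, assumed fragments of 200 bases), were 33700000 to 39500000 reads, and the 7 genes had an estimated 921 (Jam3, 2% HS + exosome) to 45000 (Tmem8c, 2% HS) reads. FPKM gives no counting interval.

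Values were compared as log2(FPKM + 1) with limma 3.58.1 (R 4.3.3) over 10731 genes (minimum mean 1 FPKM), with 1 mean per condition, a trended prior and Benjamini-Hochberg adjustment over all genes at 0.05, two-sided. Only the 2 libraries of 0.2% FBS + exosome leave a residual degree of freedom (1; prior 7.28), so p-values measure a spread that may be technical. The study's own threshold, a log2 difference above 1 or below -1, was set beside it. A common exosome effect was fitted with medium as a covariate. It was counted as an alternative to the effect in 0.2% FBS, although it tests 1 effect over both media. The fit was run on simulated data to check its code, and no error rate from that run is used here. Alternatives were another pseudocount (0.1), a floor of 1 FPKM, 75th percentile scaling, no filter or a minimum of 5 FPKM, no trend, and leaving out each exosome replicate. Each SD with n = 2 is over 2 differences from the same 0.2% FBS library. It is the spread of the exosome libraries only and holds none of that control.

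The 7 genes and the 4 lists of other genes were chosen with earlier results of these data known. Named besides them were Gm7325, list genes past the fold threshold, the 3 genes most correlated with each of the 7 (1 of those of Cdh15 is not reported here), Myog and Rpl13a. The ratios to Gm7325 and Rpl13a were added after their values were seen. So were Jam2, Trio, Kirrel, Cd9, Wipf1 and Mcam, which limma called at a mean difference short of the fold threshold. Gene positions are from GENCODE, mm10. A read-length search found no stretch of 75 bases of the 7 transcripts in another gene, apart from 1 of 5976 in Ncam1.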

Additional observations from a re-analysis of the deposited data

How the results depend on the processing

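Counts of the 7 genes called lower with exosomes in 0.2% FBS depended on the processing. limma called 2 in the analysis as reported, 4 after 75th percentile scaling, 0 with values below 1 FPKM raised to 1, 0 without a filter and 0 in the fit with medium and exosome over 5 libraries. Of all genes 4.32% were called lower as reported, 7.48% after scaling and 0 in each of the other 3 settings, so those settings lost every such call and not only those of the 7 genes. Tmem8c kept a log2 difference of -1.38 with the floor and -1.37 without a filter, and was at -0.725 in the 5-library fit, while Dysf was at -0.914, -0.853 and -0.505. The prior degrees of freedom were 7.28 as reported, 8.64, 2.47, 1.03 and 4.81 in these settings, and the cause of the differences was not tested. A mean log2 difference below -1 was found for 1 gene as reported and for 2 after 75th percentile scaling (Tmem8c and Ncam1). Without exosome replicate 1 it was found for 4 genes and without replicate 2 for 1, a range of 1 to 4; Tmem8c ranged from -1.66 to -1.09, Ncam1 from -1.22 to -0.65, Cdh2 from -1.13 to -0.51 and Dysf from -1.01 to -0.69. Leaving out a replicate leaves no residual degree of freedom, so these values carry no test. No share of all genes with a mean log2 difference below -1 is given here, as reported or under these settings. The counts of 1 to 4 genes thus have no background beside them. With a pseudocount of 0.1 Ncam1 passed (limma, adjusted p = 0.0495). Over 7 alternatives with a test, adjusted p-values ranged from 0.0219 to 0.705 for Tmem8c and from 0.0100 to 0.705 for Dysf, each called in 4. With exosomes in both media, 3 genes were called lower in 0.2% FBS than in 2% HS as reported. After 75th percentile scaling it was 4, with Cdh2 added (limma, adjusted p = 0.0436). It was 0 with values below 1 FPKM raised to 1 and 0 without a filter. Of all genes 5.67% were called lower as reported, 8.28% after scaling and 0 with the floor or without a filter. Of 308 values of single genes tested under alternatives, 289 kept their direction and side of the threshold, 12 lost a call, 6 gained one, and 1 turned its direction with no call (Cdh15 in 0.2% FBS + exosome against 10% FBS, -0.00699 after 75th percentile scaling). Of 56 values without an exosome replicate, 6 turned direction, 4 of them against 10% FBS. For the exosome effect in 2% HS, its difference between the media, and 0.2% FBS, 2% HS and 0.2% FBS + exosome against 10% FBS, no alternative called any of the 7 genes. The sample titles give a number to a control and an exosome library within each medium. With this number as a replicate block over those 4 libraries, chosen after seeing the data, the exosome effect was -0.474 for Tmem8c and -0.367 for Dysf. In this fit 0 of the 7 genes were called (limma, adjusted p = 0.9999). Of all 10731 genes 0 were called as well, and 296 had an unadjusted p below 0.05. The number then coincides with the medium, and no block could be fitted within a medium because its control has 1 library. The single control of each medium, the estimated depth and the lack of counts limit every value.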
